A study of Sus scrofa with 36 samples.

Results

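The Toll-like receptors are the sensors by which cells of the innate immune system recognise parts of microbes and products of damaged cells. The genes described here are CD14, TLR2, TLR3, TLR4, TLR7, TLR8 and MYD88, taken from the deposited expression table by symbol: 7 of 12253 genes, each with 1 row. Their Ensembl identifiers are ENSSSCG00000014369 (CD14), ENSSSCG00000009002 (TLR2), ENSSSCG00000015801 (TLR3), ENSSSCG00000005503 (TLR4), ENSSSCG00000012117 (TLR7), ENSSSCG00000012118 (TLR8) and ENSSSCG00000011251 (MYD88). The samples were subcutaneous adipose tissue from 36 pigs of an F2 intercross between Duroc sows, a breed selected for leanness, and Göttingen minipig boars, a small breed prone to obesity. The labels name no treatment, and the groups differed by the Obesity Index, an aggregate of predicted genetic values for fatness. The 12 lean pigs (labelled Low) were 7 males and 5 females, the 12 intermediate pigs (Mean) were 6 males and 6 females, and the 12 obese pigs (High) were 6 males and 6 females. Poly-A RNA was sequenced from each pig. The pigs were slaughtered at a similar weight, so the lean pigs were older, and age and the Obesity Index cannot be told apart here. Full sibs could occur within a group, and the libraries were run over several lanes. The labels give neither for a pig, so a family or lane effect could not be taken into account.

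Toll-like receptors divide by where they meet their ligand. On the cell surface, TLR2 pairs with TLR1 or TLR6 to bind bacterial lipopeptides, and TLR4 binds lipopolysaccharide through its partner LY96 (MD-2), with CD14 passing the ligand on to both receptors. Inside endosomes, TLR3 senses double-stranded RNA, and TLR7 and TLR8 sense single-stranded RNA. MYD88 is the adaptor that carries the signal of all of them except TLR3, which signals through TICAM1 (TRIF). In adipose tissue macrophages carry most of these receptors, while TLR4 and MYD88 are also found in adipocytes and stromal cells.

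Levels are given as normalized counts, that is, the reads of a gene in a pig divided by that pig's size factor, a measure of sequencing depth. Gene lengths were not used, so a level is compared between pigs and never between genes. The recovered reads summed to between 8735838 and 11755925 per pig, with group medians of 10159187 (lean), 10239823 (intermediate) and 10672359 (obese). Differences between groups are on the log2 scale of the deposited values and come from limma across all 12253 genes, with sex in the fit. Adjusted p-values are Benjamini-Hochberg values over all 12253 genes. The pigs are separate animals, so the p-values refer to the spread between pigs.

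All 7 genes had a higher mean in obese than in lean pigs, and none of the differences passed an adjusted p of 0.05. Over all genes, 5 passed in this comparison (0.0408%), each with its lower level in the obese group, and 47.5% had a difference above 0. At an unadjusted p under 0.05, CD14, TLR2, TLR7 and TLR8 were higher in obese pigs, 4 of the 7 beside 6.81% of all genes. The median log2 difference of the 7 was 0.63, beside -0.011 over all genes. In females alone, with 5 lean and 6 obese pigs, 0 of the 7 were at an unadjusted p under 0.05, beside 1924 of all genes. TLR4 was there on the other side of 0, at -0.14. Bulk tissue cannot tell more cells of a type from more RNA per cell. In obese pigs 10 of 10 macrophage markers with a row also had a higher level, with a median difference of 0.80. So did 4 of 4 neutrophil and monocyte markers (median 0.83) and 3 of 3 T and NK cell markers (median 0.81), which were not put in a fit. With the mean score of the macrophage markers in the fit, the differences of the 7 lay between -0.20 and 0.35. In that fit 0 of the 7 were at an unadjusted p under 0.05, beside 1234 of all genes. CD14 had an r of 0.912 with this score, so the term takes up much of the variation of CD14 itself. The part of macrophages in the differences was not tested beyond this fit.

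**Figure D1:**
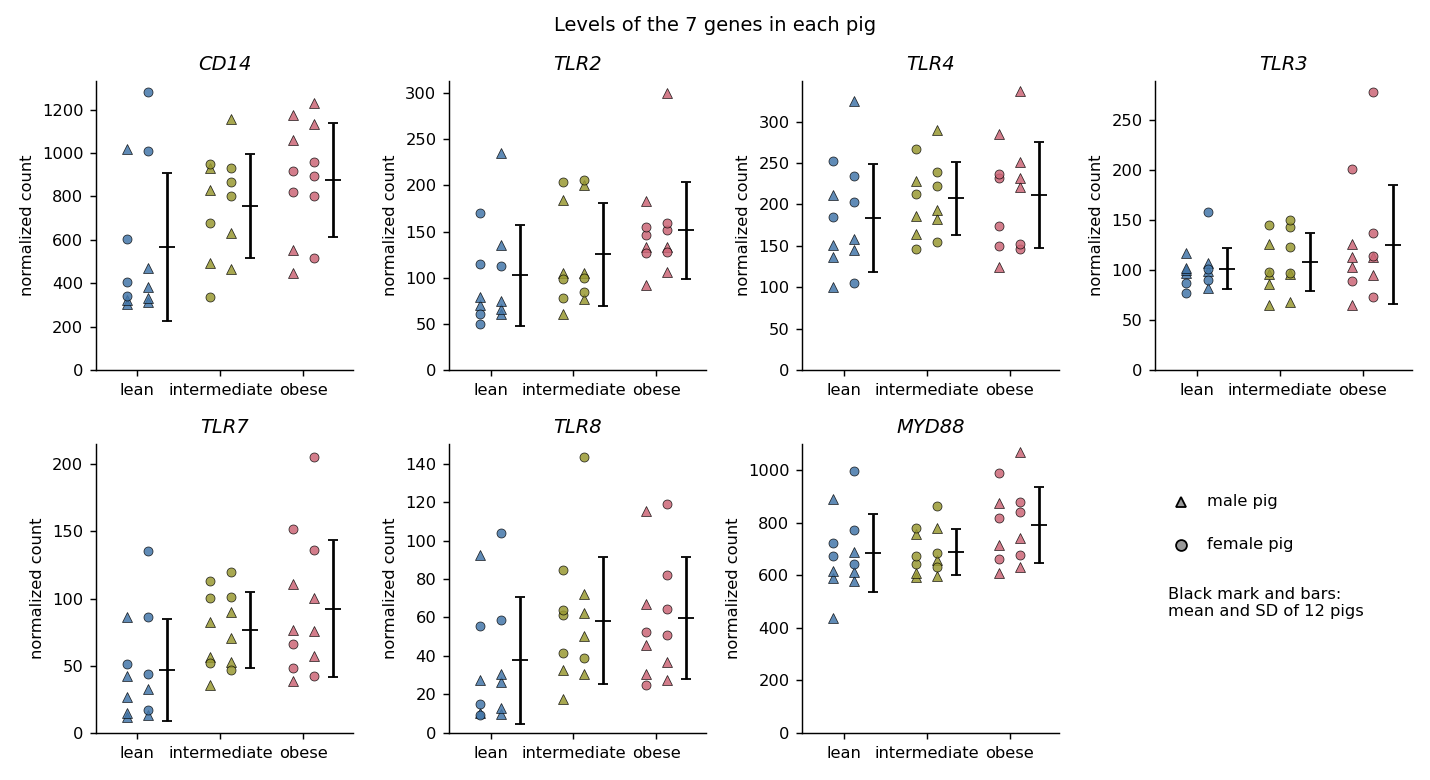
Normalized count (vertical axis, from 0) of each gene in each of the 36 pigs, by group, with triangles for males and circles for females. The black mark and bars give the mean and SD of the 12 pigs of a group. The groups overlap for every gene, and 2 or 3 lean pigs stand above the rest of their group for CD14, TLR7 and TLR8.

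CD14, the co-receptor that hands lipopolysaccharide to TLR4 and lipopeptides to TLR2, ranged from 306 to 1279 normalized counts in lean pigs with a median of 395. It ranged from 335 to 1158 with a median of 816 in intermediate pigs, and from 447 to 1231 with a median of 906 in obese pigs. All 12 obese and 11 of 12 intermediate pigs were above the lean median, and no obese pig was above the highest lean pig. The mean level was 566 ± 341 in the lean group, 756 ± 240 in the intermediate group and 877 ± 262 in the obese group (SD, n = 12 each). Obese pigs exceeded lean pigs by 0.73 on the log2 scale (SE 0.243, limma p = 0.00462, adjusted p = 0.132), with a 95% interval from 0.24 to 1.22. The intermediate pigs exceeded the lean pigs by 0.51 (SE 0.243, limma p = 0.0433, adjusted p = 0.385).

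The surface receptor TLR2 had 50.3 to 235 normalized counts in lean pigs, with a median of 77.1. The range was 60.6 to 205 with a median of 103 in intermediate pigs and 91.9 to 300.2 with a median of 140 in obese pigs. Every obese pig was above the lean median, and 7 of the 12 lean pigs were below the lowest obese pig. The obese pig with the highest TLR2 (obese 4, a male) also had the highest TLR4 of its group, at 337, and the lowest TLR3, at 64.8. TLR2 was 0.63 higher in obese than in lean pigs (SE 0.235, limma p = 0.0106, adjusted p = 0.184). The step from intermediate to obese pigs was 0.33 (limma p = 0.164) and that from lean to intermediate pigs 0.30 (limma p = 0.209).

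TLR4, the lipopolysaccharide receptor, overlapped more between the groups. It ranged from 100.3 to 325 with a median of 172 in lean pigs, from 147 to 290 with a median of 203 in intermediate pigs, and from 124 to 337 with a median of 226 in obese pigs. Of the obese pigs, 8 of 12 lay above the lean median. The obese minus lean difference was 0.21 with a 95% interval from -0.16 to 0.58 (limma p = 0.250, adjusted p = 0.622), so the spread between pigs allows values on either side of 0. The obese and intermediate groups differed by 0.00093 on the log2 scale, with an interval from -0.37 to 0.37.

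Among the endosomal receptors, the single-stranded RNA sensors TLR7 and TLR8 had the lowest read numbers and, in lean pigs, the widest spread, with log2 SDs of 1.16 and 1.27. TLR7 ranged from 12.0 to 136 normalized counts in lean pigs with a median of 37.3, from 35.7 to 120 with a median of 76.4 in intermediate pigs, and from 38.4 to 205 with a median of 76.2 in obese pigs. In all, 6 lean pigs were below the lowest obese pig, all 12 obese and 11 of 12 intermediate pigs were above the lean median, and 3 obese pigs were above the highest lean pig. At 1.13 (SE 0.327, 95% interval 0.47 to 1.79), its obese minus lean difference was the largest of the 7 (limma p = 0.00140, adjusted p = 0.0946). Between intermediate and lean pigs it was 0.95 (SE 0.327, limma p = 0.00615, adjusted p = 0.267).

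TLR8 ranged from 9.38 to 104 normalized counts in lean pigs with a median of 26.9, from 17.7 to 143 with a median of 55.9 in intermediate pigs, and from 25.1 to 119 with a median of 51.8 in obese pigs. The lowest number of TLR8 reads in a lean pig was 9, where counting error is large. In both the intermediate and the obese group, 11 of 12 pigs were above the lean median. The log2 difference was 0.90 (SE 0.367, limma p = 0.0185, adjusted p = 0.224) between obese and lean pigs, and 0.86 (limma p = 0.0253, adjusted p = 0.345) between intermediate and lean pigs. TLR7 and TLR8 are neighbours, and in the RefSeq models of the later assembly Sscrofa11.1 the span of TLR8 takes in TLR7. Whether reads were counted by strand, and how reads that match both were handled, is not given in the sources used here. The 2 genes may therefore share or lose reads, and how far their values are separate was not tested.

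TLR3, the sensor of double-stranded RNA, averaged 102 ± 20.8 (lean), 108 ± 29.1 (intermediate) and 126 ± 59.5 (obese) normalized counts (SD, n = 12 each). It ranged from 77.1 to 158 in lean pigs, from 65.8 to 151 with a median of 97.7 in intermediate pigs, and from 64.8 to 279 with a median of 113 in obese pigs. The lean median was exceeded by 5 of 12 intermediate and 8 of 12 obese pigs. Its SD on the log2 scale was 0.28, 0.40 and 0.62 in the lean, intermediate and obese groups, an order opposite to that of CD14, whose SD was 0.79, 0.54 and 0.49. The obese females 3 and 1 had 279 and 201 normalized counts of TLR3, above every lean pig, and the lowest and the highest value of the whole set were both in the obese group. Obese minus lean came to 0.17 (95% interval -0.18 to 0.52, limma p = 0.325, adjusted p = 0.689).

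MYD88, the shared adaptor, had log2 SDs of 0.34, 0.19 and 0.29 in the lean, intermediate and obese groups, the last 2 of which were the smallest of the 7 genes. Its values ran from 438 to 996 with a median of 658 in lean pigs, from 595 to 863 with a median of 665 in intermediate pigs, and from 609 to 1069 with a median of 780 in obese pigs. Of the obese pigs 10 of 12, and of the intermediate pigs 6 of 12, were above the lean median. The difference was 0.19 between obese and lean pigs (SE 0.110, limma p = 0.0915, adjusted p = 0.431), and 0.00076 between intermediate and lean pigs (95% interval -0.22 to 0.22).

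**Figure D2:**
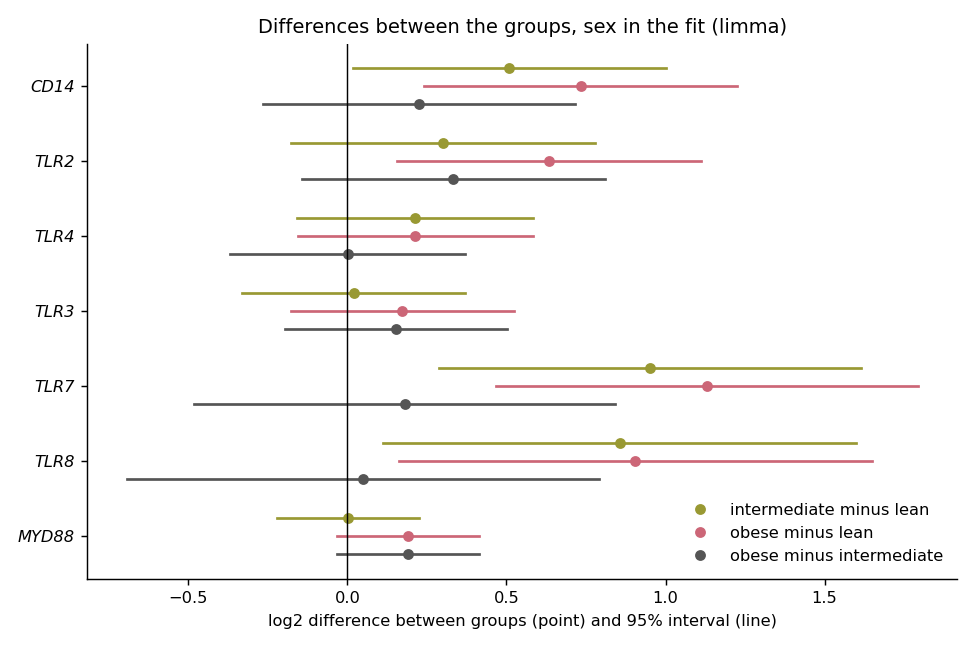
Log2 difference between groups for each gene (points) with its 95% interval (lines), from limma with sex in the fit, as intermediate minus lean, obese minus lean and obese minus intermediate. For CD14, TLR7 and TLR8 the intervals of intermediate minus lean and obese minus lean lie above 0, while all 7 intervals of obese minus intermediate include 0.

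The position of the intermediate pigs differed from gene to gene. TLR7, TLR8 and CD14 were at an unadjusted p under 0.05 between intermediate and lean pigs, 3 of the 7 beside 5.71% of all genes that were higher there. Without lean 3 or without lean 9 only TLR7 was left of these (0.81 and 0.86). The count was also 0 in females alone. In the same comparison 10 of 10 macrophage markers had a difference above 0, with a median of 0.59. Of these markers, 6 were at an unadjusted p under 0.05. With the macrophage score in the fit, 0 of the 7 genes were at an unadjusted p under 0.05, beside 1123 of all genes. Without the score, none of the 12253 genes passed an adjusted p of 0.05 in that comparison (0.0%) by limma. There, 1535 were at an unadjusted p under 0.05. Between obese and intermediate pigs, 0 of the 7 reached an unadjusted p of 0.05, beside 2.06% of all genes that were higher. Without obese 7 it was 1, MYD88, with 0.24 (limma adjusted p = 0.894). No gene passed the adjusted p there either (0.0%, limma), with 524 at an unadjusted p under 0.05. The 2 comparisons with lean pigs share the lean pigs, so they are not independent of each other.

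The lean group held 2 pigs that were high for nearly every member. Lean 2, a male, and lean 8, a female, were each among the 3 highest lean pigs for all 7 genes. Lean 8 had 1279 normalized counts of CD14, 136 of TLR7, 104 of TLR8 and 996 of MYD88, the highest lean values of these genes. Lean 2 had 1019 of CD14, 86.6 of TLR7, 92.7 of TLR8 and 889 of MYD88, and the highest lean values of TLR2 (235) and TLR4 (325). Another pig, lean 1, was among the 3 highest for CD14 only, at 1010, and had the lowest TLR2 of its group at 50.3 and the lowest TLR8 at 9.38. The macrophage marker scores of lean 2 and lean 8, 1.53 and 0.97 SD units, were the highest of the lean group, in which 9 of the 12 scores were below 0. Without lean 2, TLR7 (1.27, limma adjusted p = 0.0251) and CD14 (0.84, limma adjusted p = 0.0446) passed the adjusted p of 0.05 between obese and lean pigs. Without lean 8, TLR7 (1.29, limma adjusted p = 0.0367) and CD14 (0.86, limma adjusted p = 0.0493) passed as well. Leaving out a lean pig high for a gene raises the obese minus lean difference of that gene. These calls are therefore no added support. Of all genes, 292 passed in that comparison without lean 2, 204 without lean 8, 43 without lean 10 and 22 without lean 12. Over every single pig left out this count ran from 1 to 292, beside 5 with all 36 pigs. No other single pig left out brought any of the 7 genes past the threshold.

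The rest of the Toll-like receptor pathway was described from lists that hold 72 genes, of which 41 had a row. None of the 41 passed an adjusted p of 0.05 between obese and lean pigs by limma. Of these, 12 were at an unadjusted p under 0.05, all 12 of them higher in obese pigs, beside 6.81% of all genes higher and 7.88% lower. Their median log2 difference was 0.10, below the 0.63 of the 7 genes. Between intermediate and lean pigs, 6 of the 41 were higher and 3 lower at an unadjusted p under 0.05, beside 1535 of all genes in either direction. The median there was 0.073.

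**Figure D3:**
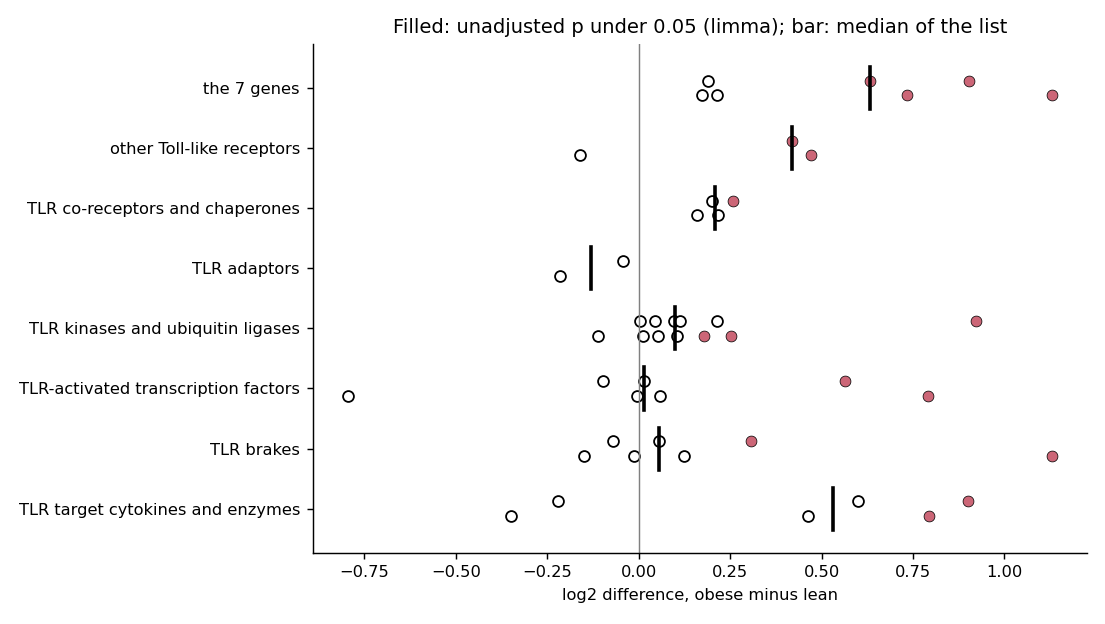
Log2 difference between obese and lean pigs (horizontal axis) for the 7 genes and for the genes of 7 pathway lists, 1 point per gene, filled where the unadjusted limma p was under 0.05. The black bar is the median of a list, and it lies at 0.63 for the 7 genes, at 0.53 for target cytokines and enzymes and below 0 for the adaptors.

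Of the other Toll-like receptors, TLR1, TLR5 and TLR6 had a row. TLR1 was 0.47 higher in obese than in lean pigs (limma p = 0.00369, adjusted p = 0.124) and TLR6 0.42 higher (limma p = 0.0441, adjusted p = 0.322). TLR5, the receptor for bacterial flagellin, differed by -0.16 (limma p = 0.440, adjusted p = 0.771). This difference was higher in males than in females by 1.17 (interaction, SE 0.374, limma p = 0.00358, adjusted p = 0.207). In that interaction 2 of the 41 genes were higher at an unadjusted p under 0.05, beside 9.95% of all genes. TLR1 and TLR6 are partners of TLR2, and they are a closely related pair. How reads that match both were counted is not given in the sources used here, so reads may be lost from them or shared between them. The 4 co-receptors and chaperones with a row lay between 0.16 and 0.26. The largest was LY96, the part of the TLR4 complex that holds lipopolysaccharide, with 0.26 (limma p = 0.0201, adjusted p = 0.230), followed by the chaperone CNPY3 with 0.22 (limma p = 0.0851, adjusted p = 0.415). The 2 adaptors with a row were on the other side of 0. TICAM1, through which TLR3 signals, differed by -0.22 (limma p = 0.0727, adjusted p = 0.395), and TIRAP, which brings MYD88 to TLR2 and TLR4, by -0.043 (limma p = 0.686).

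Of 12 kinases and ubiquitin ligases, 3 were at an unadjusted p under 0.05 and higher in obese pigs. BTK, a kinase of B cells and myeloid cells, differed by 0.92 (limma p = 0.00883, adjusted p = 0.170), and IRAK4, the kinase that binds MYD88, by 0.25 (limma p = 0.0144, adjusted p = 0.206). The median of this list was 0.10. The 7 transcription factors had a median of 0.015. IRF5, which acts downstream of TLR7 and TLR8 in myeloid cells, was 0.79 higher (limma p = 0.00517, adjusted p = 0.136). FOS, an early response gene, differed by -0.80 (limma p = 0.113, adjusted p = 0.465) and ranged from 134 to 5269 normalized counts among lean pigs.

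The 7 brakes of the pathway had a median of 0.054, and 2 were at an unadjusted p under 0.05. ATF3, a repressor of inflammatory genes, was 1.13 higher in obese pigs (limma p = 0.00492, adjusted p = 0.134). TNIP1, which helps to switch off NF-κB signalling, was 0.31 higher (limma p = 0.00208, adjusted p = 0.106). Of the target genes only 6 of 17 had a row, 4 with a difference above 0 and 2 below, and TNF, IL1B, IL6 and IL8 were not among the symbols matched. The co-stimulator CD86 was 0.90 higher (limma p = 0.00531, adjusted p = 0.138) and the chemokine CCL5 0.79 higher (limma p = 0.0126, adjusted p = 0.195).

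Sex differences were compared over all groups, in the same fit. TLR7 and TLR8 lie on the X chromosome. None of the 7 genes passed an adjusted p of 0.05 between males and females, while 268 of all genes did (2.19%). TLR7 had 12.0 to 111 normalized counts with a median of 56.2 in the 19 males and 17.3 to 205 with a median of 86.3 in the 17 females. The male minus female difference of TLR7 was -0.61 (SE 0.267, limma p = 0.0283, adjusted p = 0.215). TLR3 ran from 64.8 to 126 with a median of 99.6 in males and from 72.9 to 279 with a median of 115 in females, a difference of -0.31 (SE 0.141, limma p = 0.0339, adjusted p = 0.235). These were 2 of the 7 at an unadjusted p under 0.05, beside 10.3% of all genes that were lower in males. Macrophage markers were below 0 in the same comparison in 10 of 10 cases, 4 of them at an unadjusted p under 0.05, with a median of -0.38. With their score in the fit, TLR7 differed by -0.27 (limma p = 0.172) and TLR3 by -0.24 (limma p = 0.103). The 3 T and NK cell markers with a row were at an unadjusted p under 0.05 and lower in males, with a median of -1.07, and their score had an r of 0.60 with TLR7 and 0.519 with TLR3 over the 36 pigs. The 4 fibroblast and progenitor markers were above 0 in males, with a median of 0.63, and 1 of them passed an adjusted p of 0.05. The 4 adipocyte markers were below 0, with a median of -0.33, and 1 of them passed as well. The part of T and NK cells, fibroblasts and adipocytes in the sex differences was not tested. TLR8 differed by -0.56 (limma p = 0.0711) and MYD88 by -0.16 (limma p = 0.0766), and the absolute differences of CD14, TLR2 and TLR4 were smaller than their SE.

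The count of 2 rested on single pigs, since it was 0 without lean 8 or without obese 3, and 4 without lean 2 or without obese 7. It was 1 without lean 12, intermediate 1, 2, 4 or 6, or obese 1 or 4. In the wider pathway, 2 of the 41 genes passed the adjusted p between the sexes, both lower in males. CCL5 had a male minus female difference of -1.10 (limma adjusted p = 0.0135), with medians of 80.5 in males and 156 in females. CCL5 is made by T and NK cells among others, and the 3 T and NK cell markers with a row differed by -1.09 to -0.74 between males and females (limma adjusted p from 0.0563 to 0.0857). IKBKG, the regulatory subunit of the kinase that activates NF-κB and also X-linked, had one of -0.36 (limma adjusted p = 0.0316), with medians of 966 and 1233.

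The obese minus lean difference was also fitted within each sex. In males it was 1.12 for CD14, 0.51 for TLR4 and 1.48 for TLR7. In females the same differences were 0.26, -0.14 and 0.70. TLR3 went the other way, with 0.023 in males and 0.37 in females. The difference between the sexes was tested as an interaction. It was 0.85 for CD14 (SE 0.477, limma p = 0.0834, adjusted p = 0.443), 0.65 for TLR4 (SE 0.359, limma p = 0.0801, adjusted p = 0.439) and 0.79 for TLR7 (SE 0.660, limma p = 0.241, adjusted p = 0.624). None of the 7 was at an unadjusted p under 0.05, beside 9.95% of all genes that were higher, and 1 gene of all passed the adjusted p (0.00816%). The count was 1 without lean 3, lean 6 or obese 3 and 2 without lean 2 or obese 8. With the macrophage score in the fit it was 1, CD14, at 0.56 (limma adjusted p = 0.304). The 95% interval of the interaction ran from -0.12 to 1.82 for CD14 and from -0.55 to 2.13 for TLR7, so with 5 to 7 pigs per sex and group its size was poorly determined.

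Correlations between the 7 genes over the 36 pigs are given as a description. The points share their library depth and cell makeup, and the deposited scale divides out only part of the depth. All 21 pairs had a Pearson r above 0, from 0.229 to 0.746 with a median of 0.625. The highest was that of TLR7 with TLR8 (0.746), then CD14 with TLR7 (0.731) and CD14 with TLR4 (0.707). The 6 pairs with TLR3 had a median of 0.371, against 0.649 for the other 15 pairs. TLR3 was closer to the other endosomal receptors (0.502 with TLR7 and 0.513 with TLR8) and to MYD88 (0.511) than to CD14 (0.240), TLR2 (0.229) and TLR4 (0.239).

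Within the obese group TLR3 had an r of -0.333 with TLR2 and -0.106 with CD14, and 0.659 with TLR7 (n = 12). In lean pigs the same pairs stood at 0.478, 0.523 and 0.513, and in intermediate pigs at 0.529, 0.347 and 0.497 (n = 12 each). Among the obese pigs, obese 3 had the highest TLR3 and ranked 6 of 12 for CD14, and obese 4 had the highest TLR2 and the lowest TLR3. The values below 0 rested on single pigs: without obese 4 the r of TLR3 was -2.37e-05 with TLR2 and 0.0175 with CD14, and without obese 1 it was 0.087 with CD14 (n = 11). With TLR7 it ran from 0.464 (without obese 3) to 0.789 (without obese 4). Removing group and sex from the values left the 21 pairs between 0.141 and 0.728.

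**Figure D4:**
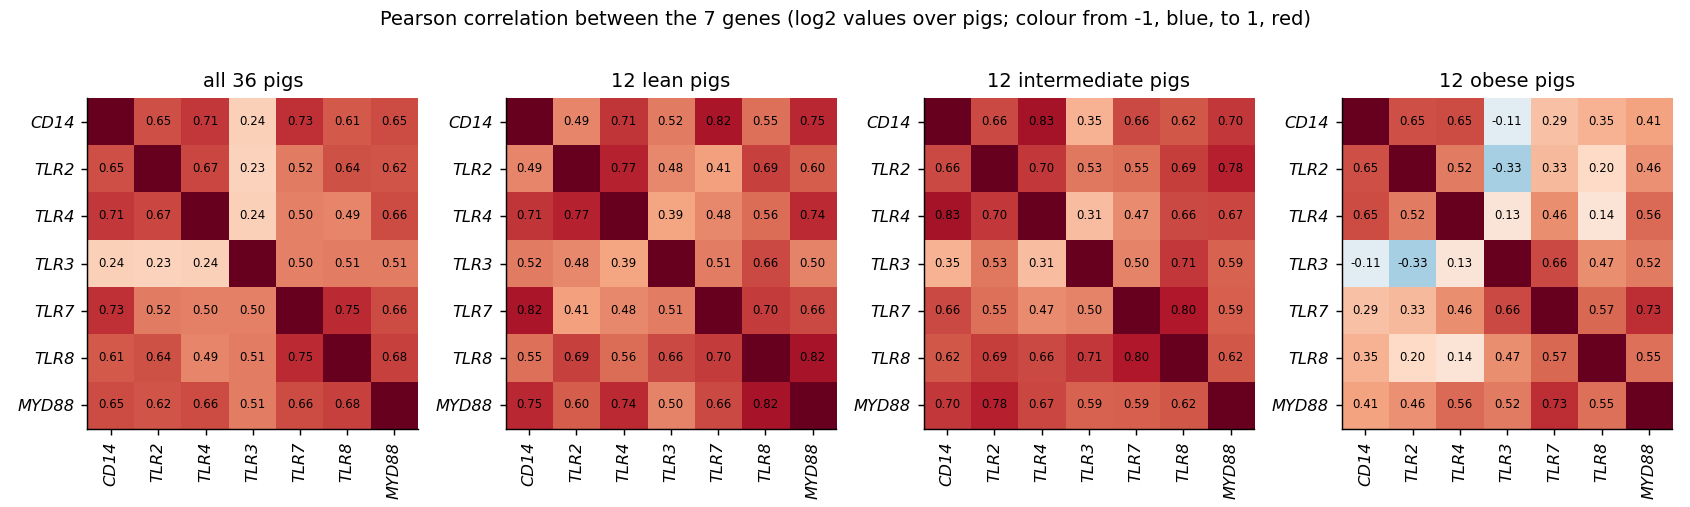
Pearson correlation of log2 values between each pair of the 7 genes, over all 36 pigs and within each group of 12, with the colour running from blue at -1 to red at 1. TLR3 is the palest row over all pigs, and its pairs with TLR2 and CD14 are below 0 in the panel of obese pigs, at -0.333 and -0.106, and are near 0 without obese 4.

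The genes most like each member were taken by Pearson r over the 36 pigs among 8313 other genes with a symbol. CD14 was closest to CSF1R, the receptor for macrophage colony-stimulating factor (0.953), then to F13A1 (0.929), a coagulation factor subunit made by macrophages, and IRF5 (0.917). TLR2 was closest to PIK3CG (0.824), a lipid kinase of leukocytes, the mannose receptor MRC1 (0.765) and ARPC5 (0.757), a subunit of the actin-branching complex. TLR7 was closest to SPI1 (0.880), the transcription factor PU.1 of myeloid and B cells, to FYB1 (0.870), an adaptor of leukocytes, and to GIMAP4 (0.868), a GTPase of lymphocytes. TLR8 was closest to PIK3AP1 (0.929), C19orf38 (0.890) and the actin-severing protein SCIN (0.883).

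TLR3 had other neighbours. Its 3 closest genes were IFIT1 (0.857), SAMD9 (0.830) and DHX58 (0.810), all of which are induced by interferon, as TLR3 itself is. Within groups the r of TLR3 with IFIT1 was 0.637 (lean), 0.915 (intermediate) and 0.886 (obese). TLR4 was closest to KLF10 (0.842), a transcription factor induced by TGF-β, to RBPJ (0.814), the DNA-binding partner of Notch, and to ADSS2 (0.796), an enzyme of purine synthesis. MYD88 was closest to the protease inhibitor SERPINB1 (0.819), to ARID5A (0.798), an RNA-binding protein that stabilises inflammatory transcripts, and to the nuclear transport receptor XPO7 (0.797). With group and sex removed, the first gene of each member was again the first. By rank correlation (Spearman) it was the first for TLR2, TLR4 and TLR8 only. CSF1R was then at rank 5 for CD14, IFIT1 at 2 for TLR3, SPI1 at 8 for TLR7 and SERPINB1 at 10 for MYD88. Among the other genes named, SCIN moved to rank 36 for TLR8 and DHX58 to 22 for TLR3.

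Macrophage markers varied together with the members. Of 16 macrophage markers 10 had a row, and in obese pigs 10 of 10 had a difference above 0 and 9 were at an unadjusted p under 0.05, with a median of 0.80 and none at an adjusted p under 0.05. Their summed normalized counts ran from 2486 to 12970 with a median of 3711 in lean pigs, from 3597 to 12440 with a median of 8433 in intermediate pigs and from 5318 to 13390 with a median of 8915 in obese pigs. AIF1, CD163, C1QB, C1QC, VSIG4 and MARCO were not matched to a row. Every row of the table has at least 6 reads in every pig, so no marker with a row was at 0. With the mean score of these 10 markers, CD14 had an r of 0.912, TLR7 0.819, TLR8 0.792, MYD88 0.711, TLR2 0.710, TLR4 0.658 and TLR3 0.403. With group and sex removed, these were 0.888, 0.735, 0.722, 0.691, 0.665, 0.700 and 0.309 in the same order.

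**Figure D5:**
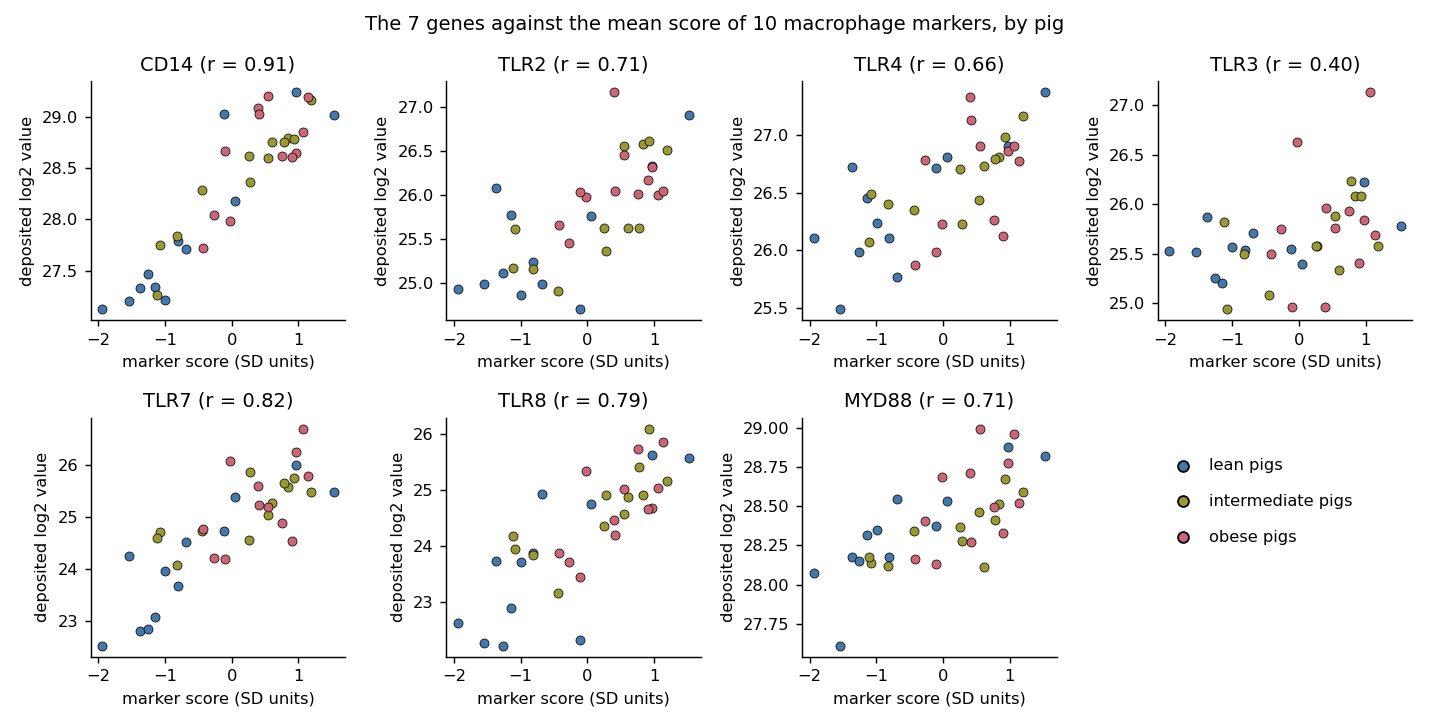
Deposited log2 value of each gene (vertical axis) against the mean score of 10 macrophage markers (horizontal axis, in SD units), 1 point per pig, coloured by group. CD14 follows the score most closely and TLR3 least, and 1 lean pig has the highest score of all 36.

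With the macrophage score as a term in the fit, the obese minus lean difference was 0.032 for CD14 (SE 0.13), 0.13 for TLR2, 0.35 for TLR7, 0.046 for TLR8, 0.0035 for TLR3, -0.20 for TLR4 and -0.049 for MYD88. The score comes from the same libraries, and the part of macrophages in the differences was not tested beyond this fit. Other cell types were followed with fewer markers. The 4 neutrophil and monocyte markers with a row had a median difference of 0.83 between obese and lean pigs, with summed levels of 322 to 3459 (lean), 510 to 3713 (intermediate) and 767 to 4385 (obese). The 3 T and NK cell markers had a median of 0.81, with sums of 108 to 367 (lean), 95.5 to 591 (intermediate) and 142 to 1431 (obese). With group and sex removed, the r of the neutrophil and monocyte score ran from 0.283 with TLR3 to 0.727 with CD14, and was 0.583 with TLR7. That of the T and NK cell score ran from 0.105 with CD14 to 0.424 with TLR7. With TLR3 it was 0.379, above the 0.309 of the macrophage score. The fibroblast and progenitor score had an r of 0.594 with CD14, and from -0.012 (TLR3) to 0.34 (TLR4) with the other 6 genes. Their part in the results was not tested.

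Of 8 adipocyte markers 4 had a row (PLIN1, LIPE, CIDEC and PPARG), and their summed level ran from 23030 to 72230 over the 36 pigs. ADIPOQ, LEP, FABP4 and LPL were not matched to a row. Every row has at least 6 reads in every pig, so these levels do not test the tissue label. The median difference of the 4 adipocyte markers between obese and lean pigs was 0.10, and that of 4 fibroblast and progenitor markers 0.26. That of 3 endothelial markers was -0.33, with 2 of the 3 lower at an unadjusted p under 0.05. The 2 red blood cell markers with a row had a median difference of 0.81 and summed levels from 186 to 18080. No gene of the B cell, dendritic cell and skeletal muscle lists was matched to a row. With group and sex removed, the adipocyte score had an r of -0.506 with CD14, -0.465 with TLR4 and -0.038 with TLR3.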

How the data were processed

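The authors used STAR for alignment (Sscrofa10.2, paired-end reads) and HTSeq for reads per gene, dropped genes with 5 or fewer reads, and normalized with size factors from DESeq and voom from limma. They deposited 1 log2 value per gene and pig. By the steps between low values, each equals the log2 of (reads + 0.5) divided by (size factor + 1), times 1000000, so only part of the depth is divided out. Per the methods the samples were corrected for sex, but whole reads were recovered from 100% of the values up to 1000 reads (tolerance 0.1), so the deposited values carry no sex correction and sex was put in the fit.

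Normalized counts are the recovered reads divided by the size factor (0.796 to 1.18). Symbols came from a table of Ensembl IDs, which named 8320 of 12253 genes. Differences were tested with limma 3.58.1 in R 4.3.3 (empirical Bayes with an intensity trend) on all 36 pigs, with group and sex, and Benjamini-Hochberg adjustment over all genes. The interaction of group and sex was a second fit. The script was tested on simulated data. Tables and figures were made with Python 3.11.15, numpy 2.4.6, pandas 2.3.3 and matplotlib 3.10.9.

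The members, lists and tests were chosen with earlier results of these data known. Genes named in the text are the 7 members, the 3 genes with a symbol most like each by Pearson r, and of each pathway list the genes past an adjusted p of 0.05 in any comparison and the 2 with the largest obese minus lean difference; the adipocyte markers, markers without a row and genes of the lists without a row, and TLR5, were named after the values were seen. Alternatives were no sex term, 2 groups only, no trend, the lowest 25% of genes removed, each pig's median subtracted, the whole size factor, voom weights on recovered reads, each sex alone, each pig left out and the macrophage score as a term. Leaving out each obese pig from the correlations of TLR3 was chosen after seeing the data. The pathway and marker lists hold general knowledge. Sequences were not used here.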

Additional observations from a re-analysis of the deposited data

How the results depend on the processing

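The limma calls between obese and lean pigs rested on few genes. Beside the 5 genes given in the report, 3 passed an adjusted p of 0.05 with no sex term, 17 with only the 2 groups compared, 12 with no intensity trend, 1 with the lowest 25% of genes removed, 9 with each pig's median subtracted, 9 with the whole size factor, 17 with voom weights on recovered reads, 2 in males only, 21 in females only and 0 with the macrophage marker level as a term (limma, with 1234 at an unadjusted p under 0.05). With 1 pig left out this count ran from 1 to 292, that between intermediate and lean pigs from 0 to 6, that between the sexes from 147 to 546 and that of the interaction from 0 to 33. The count between the sexes was 477 with the macrophage term. That of the interaction was 2 with no intensity trend and 0 with each pig's median subtracted, with the whole size factor and with voom weights. The cause was not tested.

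None of the 7 genes passed the adjusted p between obese and lean pigs under the 10 alternatives other than leaving out a pig, with 0 to 2 passing when 1 pig was left out. The 4 at an unadjusted p under 0.05 became 2 with the lowest 25% of genes removed, a filter that removed TLR7 and TLR8, and 0 in females only and 0 with the macrophage term. The 3 between intermediate and lean pigs became 1, 0 and 0 under the same alternatives, and the 2 between the sexes became 1 with that filter and 1 with the macrophage term (TLR4, 0.24 with limma adjusted p = 0.237, in place of TLR3 and TLR7). The obese minus lean difference changed sign for TLR4 in females (-0.14) and with the macrophage term (-0.20), and for MYD88 with that term (-0.049). With 1 pig left out it stayed above 0 for all 7, from 0.99 to 1.29 for TLR7, 0.67 to 0.86 for CD14, 0.53 to 0.76 for TLR2 and 0.73 to 1.09 for TLR8. It ran from 0.067 to 0.26 for TLR3, 0.13 to 0.30 for TLR4 and 0.13 to 0.24 for MYD88.

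Between intermediate and lean pigs, TLR2 was -0.062, TLR3 -0.10, TLR4 -0.082 and MYD88 -0.17 with the macrophage term, TLR3 was -0.20 in males, and MYD88 was -0.13 in females and -0.0040 with 2 groups only. Between obese and intermediate pigs, TLR4 was -0.0070 with each pig's median subtracted, -0.20 in females and -0.11 with the macrophage term, TLR7 -0.037 with that term, and TLR8 -0.16 in females and -0.19 with that term. Between the sexes, CD14 was 0.12 and TLR2 0.18 with the macrophage term. The interaction of TLR2 was -0.023 with voom weights and -0.10 with the macrophage term. With 1 pig left out, the intermediate minus lean difference ran from -0.038 to 0.074 for TLR3 and from -0.057 to 0.050 for MYD88, the obese minus intermediate difference from -0.065 to 0.071 for TLR4 and from -0.088 to 0.19 for TLR8, the male minus female difference of TLR2 from -0.11 to 0.025, and the interaction from -0.089 to 0.36 for TLR2 and from -0.00035 to 0.82 for TLR8.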
